A study of Mus musculus with 10 samples.

Results

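The nuclear lamina and inner nuclear membrane genes described here were taken by symbol and are the 10 genes Lmna, Lmnb1, Lmnb2, Nrm, Lbr, Tmpo, Emd, Banf1, Sun1 and Sun2. All 10 were found among the 22186 genes of the deposited table of FPKM (fragments scaled by transcript length and by the fragments mapped in the library), and all 10 had a mean of at least 1 FPKM and so were among the 9869 genes tested. The libraries came from RAW264.7 cells, wild-type mouse cells with macrophage character that were established from a tumour raised with a virus, kept for 24 h in medium with doxorubicin (5 libraries) or in medium alone (5 libraries). Doxorubicin, an anthracycline, damages DNA by holding topoisomerase II in its cleavage complex. Its dose is given as 10 nM in the sample titles and 100 nM in the series design, while the dilution in the treatment protocol works out at 1000 nM. The solvent, dimethyl sulfoxide, was named for the doxorubicin cultures only, and the labels leave unsaid whether each library was a culture of its own. The p-values therefore cover the spread between these libraries, which may be technical.

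The lamina is a mesh of intermediate filament proteins, the lamins, under the inner nuclear membrane. B-type lamins stay bound to the membrane by a lipid anchor, whereas lamins A and C, made from one gene by splicing, also occur inside the nucleus. Membrane proteins such as the lamin B receptor and the LEM-domain proteins tie the lamina to chromatin, and SUN proteins connect it to the cytoskeleton. Loss of lamin B1 is widely used as a mark of senescent cells, and the series title names a senescence-associated secretory phenotype as its subject.

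Values were read on the log2(FPKM + 1) scale, on which a difference is doxorubicin minus medium, and were tested by limma over all 9869 genes with Benjamini-Hochberg adjustment and an adjusted p of 0.05 as the threshold. The number 1 libraries differed from the others in both groups. Across tested genes they correlated at 0.937 to 0.982 with libraries of numbers 2 to 5, which correlated at 0.976 to 0.998 among themselves. Same-numbered libraries of both groups deviated together, so the fit that blocks on replicate number is given where it changes a call. The response to the drug was checked on Cdkn1a, which encodes the p21 inhibitor of cyclin-dependent kinases and rose to 147 ± 37.3 FPKM with doxorubicin, against 51.0 ± 4.87 FPKM in medium (SD, n = 5 each; log2 difference 1.48, limma adjusted p = 0.00466). Macrophage markers summed to between 1435 and 1651 FPKM with doxorubicin and between 1379 and 1543 FPKM in medium, and 8 of these 9 markers were tested. The other, Mertk, averaged 0.310 FPKM with doxorubicin and 0.317 FPKM in medium. Neutrophil markers summed to 0.871 to 1.39 FPKM with doxorubicin and 0.583 to 1.74 FPKM in medium. Most of this came from S100a8 (mean 1.06 FPKM with doxorubicin and 1.13 FPKM in medium), while Ly6g and S100a9 were listed at 0. Sums of fibroblast, epithelial and lymphocyte markers did not exceed 0.212 FPKM in any library, and Col1a2, Col3a1, Dcn, Krt8, Krt18, Cd3e and Cd3g were listed at 0 throughout. In such bulk libraries a lower level in every cell cannot be told apart from fewer cells that express the gene.

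With doxorubicin 1 of the 10 genes was lower past the threshold and 0 were higher, where 0.223% of all tested genes were lower and 0.689% higher (90 genes, or 0.912%, in either direction). The gene that fell was Nrm, which encodes nurim, a multipass protein of the inner nuclear membrane. The median difference of the 10 genes was -0.14 and 9 of 10 lay below 0, beside a median of -0.03 and 56.8% below 0 over all tested genes. With the replicate number as a block, Nrm, Lbr, Tmpo, Sun2 and Banf1 were lower (5 of 10, where 13.7% of all tested genes were) and Lmna was higher (1 of 10, where 7.81% were). The block fit called 21.6% of all tested genes in either direction. Without both number 1 libraries, Nrm and Lbr were lower (2 of 10, where 2.77% of all tested genes were) and 0 of 10 were higher (2.87% of all tested genes, 5.63% in either direction).

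Sun1 passed as a further lower gene in 2 other fits that raised the calls over all genes as well. With numbers 2 and 3 merged into 1 block level and numbers 4 and 5 into another (3 sets), 1 of 10 was higher and 6 were lower, where 12.2% and 19.9% of all tested genes were (32.1% in either direction). With library quality weights the counts were also 1 and 6, where 37.3% of all tested genes were called and 23.3% were lower.

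**Figure D1:**
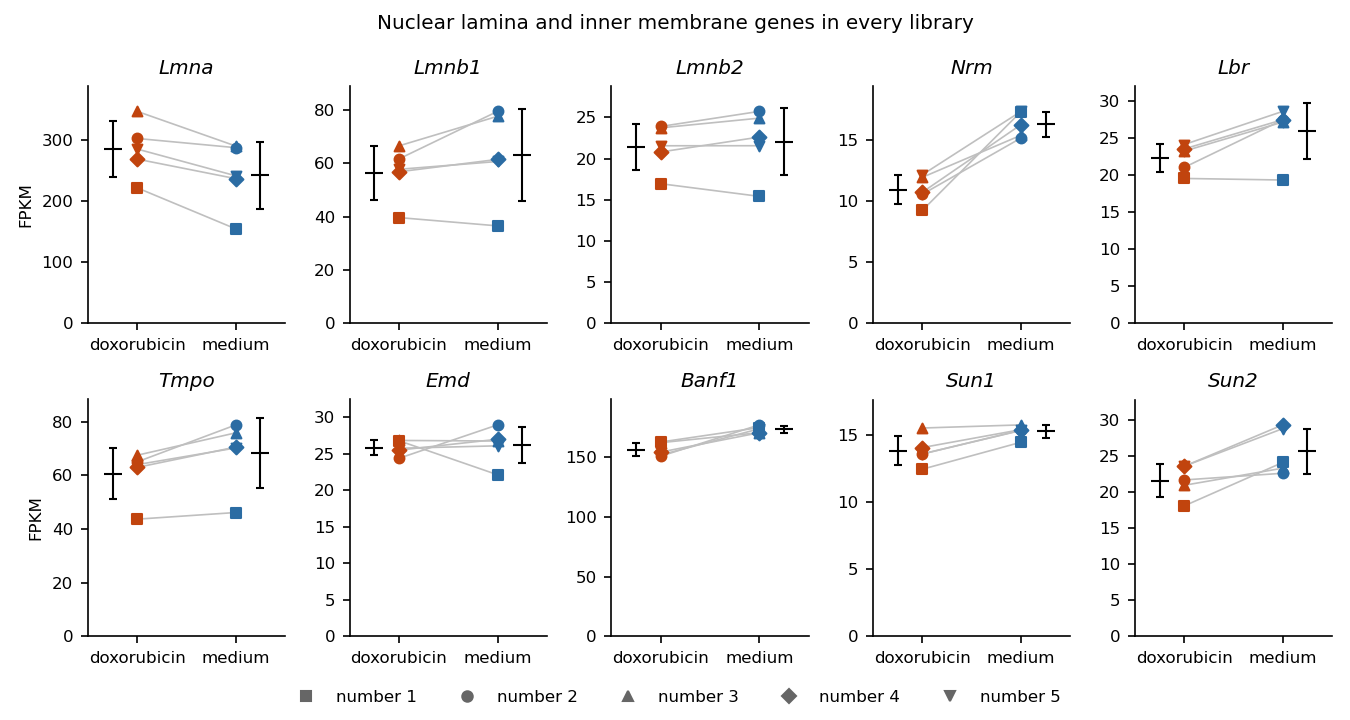
FPKM of each gene in every library (y axis from 0), with doxorubicin left of medium, lines joining libraries of the same replicate number, and bars for the mean and SD of 5 libraries beside each group. The 5 doxorubicin libraries of Nrm lie between 9.21 and 12.1 FPKM, all under the medium libraries, and number 1 (squares) is the lowest library of both groups for Lmna, Lmnb1, Lmnb2, Lbr, Tmpo and Sun1.

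Nrm measured 9.21, 10.5, 11.9, 10.7 and 12.1 FPKM in doxorubicin replicates 1 to 5, against 17.3, 15.1, 15.4, 16.2 and 17.3 FPKM in medium replicates 1 to 5. The groups did not overlap, as was the case for 6.70% of all tested genes (3.97% with doxorubicin lower and 2.73% with it higher). The mean was 10.9 ± 1.18 FPKM with doxorubicin and 16.3 ± 1.03 FPKM in medium (SD, n = 5 each), so that doxorubicin libraries held 67.0% of the medium level. The log2 difference was -0.54 with an SE of 0.08 and a limma adjusted p of 0.0154, and it was -0.47 (limma adjusted p = 0.00613) without both number 1 libraries. Within replicate numbers 1 to 5 the difference was -0.84, -0.48, -0.34, -0.56 and -0.48, so that number 1 showed the widest gap and number 3 the narrowest. The call was lost in the limma fits without doxorubicin replicate 4 (adjusted p = 0.0522) or medium replicate 4 (0.0581), and the exact two-sided permutation test gave p = 0.00794, the smallest that 5 against 5 libraries allow (0.118 after adjustment). Over all 24 alternative settings the adjusted p for Nrm ran from 1.65e-04 to 0.118.

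Lmnb1, the gene of lamin B1, did not pass the threshold. It measured 39.6, 61.7, 66.6, 56.8 and 57.8 FPKM in doxorubicin replicates 1 to 5, against 36.5, 79.6, 77.7, 61.5 and 60.7 FPKM in medium replicates 1 to 5. The groups overlapped, and the number 1 library was the lowest of each. Means were 56.5 ± 10.2 FPKM with doxorubicin and 63.2 ± 17.3 FPKM in medium (SD, n = 5 each), and the log2 difference was -0.13, with a 95% interval of -0.58 to 0.32 (limma adjusted p = 0.798). Within numbers 1 to 5 it was 0.12, -0.36, -0.22, -0.11 and -0.07, that is lower in 4 of 5 numbers and higher in number 1. The difference over all libraries was -0.01 without doxorubicin replicate 1, -0.31 without medium replicate 1, and -0.04 without medium replicate 2 or medium replicate 3, and limma called none of these. The block narrowed the interval to between -0.28 and 0.02 without a call (limma adjusted p = 0.188). Lmnb1 was lower past the threshold in 1 of 24 alternative settings, the block fit without both number 1 libraries (-0.19, limma adjusted p = 0.0244), in which 28.6% of all tested genes were called, 18.4% lower and 10.2% higher.

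Lmnb2, the gene of the other B-type lamin, stood at 16.9 to 23.9 FPKM with doxorubicin and 15.4 to 25.7 FPKM in medium. The difference was -0.03, with a 95% interval of -0.34 to 0.27 (limma adjusted p = 0.937), and no setting called it. Lmna, the gene of lamins A and C, measured 222, 303, 347, 269 and 285 FPKM in doxorubicin replicates 1 to 5, against 154, 288, 290, 237 and 241 FPKM in medium replicates 1 to 5. The groups overlapped, but Lmna was higher with doxorubicin in 5 of 5 replicate numbers, as were 13.2% of all tested genes. Its mean was 285 ± 46.0 FPKM with doxorubicin and 242 ± 55.1 FPKM in medium (SD, n = 5 each). The difference was 0.25 with an SE of 0.17 (limma adjusted p = 0.474), and with the replicate block the SE was 0.06 and the adjusted p 0.0247. Within numbers 1 to 5 it was 0.52, 0.07, 0.26, 0.18 and 0.24, with the widest gap in number 1. Without medium replicate 1 alone the difference was 0.10 (limma adjusted p = 0.624). Without both number 1 libraries it was 0.19, with a limma adjusted p of 0.235 and of 0.0115 with the block.

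**Figure D2:**
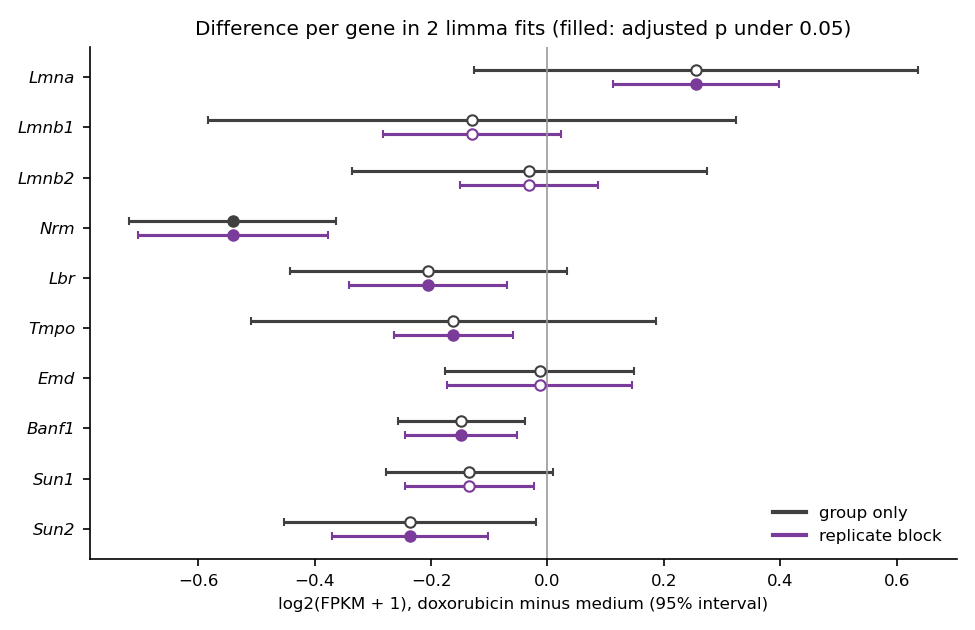
Difference in log2(FPKM + 1), doxorubicin minus medium, per gene (points) with 95% intervals (bars) from limma with group only and with the replicate number as a block, where filled points have an adjusted p under 0.05. Nrm (-0.54) is filled in both fits, and Lmna, Lbr, Tmpo, Banf1 and Sun2 are filled with the block only.

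The level of Lmna relative to the B-type lamins and to the lamin B receptor separated the groups, although none of these genes did so by itself. The ratio of Lmna to Lmnb1 FPKM was 5.60, 4.91, 5.21, 4.73 and 4.94 in doxorubicin replicates 1 to 5, against 4.23, 3.62, 3.74, 3.85 and 3.98 in medium replicates 1 to 5. Every doxorubicin library lay above every medium library, and the difference of the log2 ratios was 0.39 (0.38 without both number 1 libraries). The ratio of Lmna to Lmnb2 was 12.7 to 14.6 with doxorubicin and 10.0 to 11.7 in medium, a log2 difference of 0.29 (0.26 without both number 1 libraries). The ratio of Lmna to Lbr was 11.4, 14.4, 15.0, 11.4 and 11.8 in doxorubicin replicates 1 to 5, against 7.997, 10.5, 10.7, 8.63 and 8.45 in medium replicates 1 to 5. This log2 difference was 0.47 (0.46 without both number 1 libraries), with within-number values between 0.41 and 0.51. These ratios are a description of genes chosen with earlier results known and carry no test. The same non-overlap, with doxorubicin higher, held for the ratio of Lmna to 5.76% of the 9865 other tested genes with values above 0 in all libraries. Among these genes were Tmpo, the cyclin A2 gene Ccna2 and the chromatin protein gene Hmgb1, whose groups also overlapped when each was read by itself. The separation was thus not particular to the B-type lamins and the lamin B receptor.

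**Figure D3:**
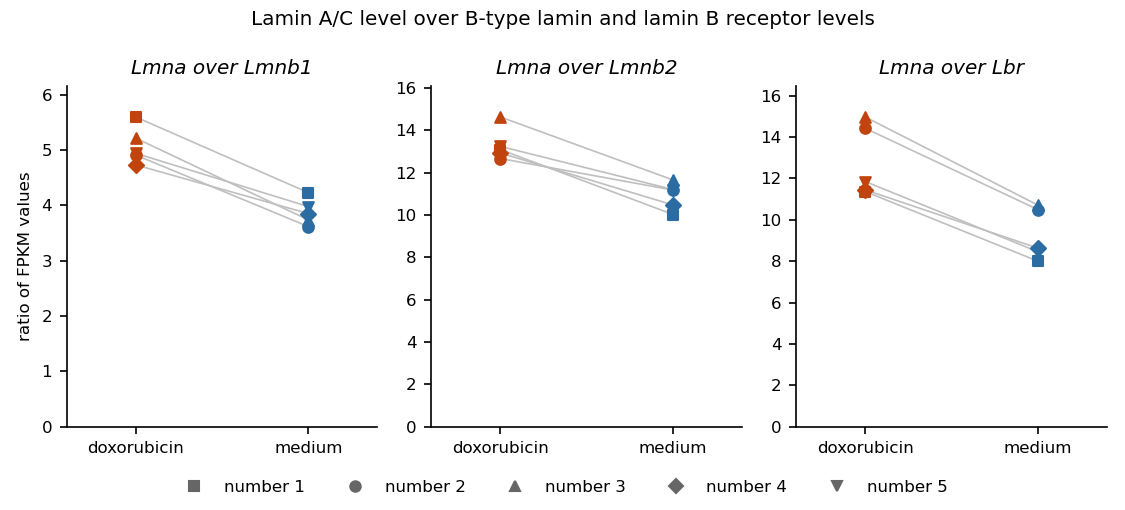
Ratio of Lmna FPKM to Lmnb1, Lmnb2 and Lbr FPKM in every library (y axes from 0), doxorubicin left of medium, with lines joining libraries of the same replicate number. For Lmnb1 the doxorubicin libraries run from 4.73 to 5.60 and the medium libraries from 3.62 to 4.23.

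Lbr encodes the lamin B receptor, which binds B-type lamins and heterochromatin and also has sterol reductase activity. It measured 19.5, 21.0, 23.2, 23.5 and 24.1 FPKM in doxorubicin replicates 1 to 5, against 19.3, 27.4, 27.1, 27.4 and 28.6 FPKM in medium replicates 1 to 5. Medium replicate 1 lay below all 5 doxorubicin libraries, whereas the other 4 medium libraries lay above all 5 of them. The difference was -0.20 (SE 0.11, limma adjusted p = 0.348; adjusted p = 0.0420 with the replicate block). Without both number 1 libraries it was -0.26, and Lbr fell past the threshold (limma adjusted p = 0.0242; 0.00392 with the block). It also passed without medium replicate 1 alone (-0.30, adjusted p = 0.0478).

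Tmpo encodes the lamina-associated polypeptide 2 isoforms, of which some span the inner membrane and others lie in the nucleoplasm. The table gives a single value for all of them. Tmpo measured 43.7, 65.1, 67.6, 63.0 and 64.0 FPKM in doxorubicin replicates 1 to 5, against 46.2, 78.9, 75.9, 70.6 and 70.3 FPKM in medium replicates 1 to 5. It was lower with doxorubicin in 5 of 5 numbers, as were 23.1% of all tested genes, and the groups overlapped only through medium replicate 1. The difference was -0.16 (SE 0.16, limma adjusted p = 0.635), and the block brought the SE to 0.04 and the adjusted p to 0.0360. It was -0.05 without doxorubicin replicate 1, -0.29 without medium replicate 1 and -0.11 without medium replicate 2, with no call by limma in these fits. Without both number 1 libraries it was -0.18, with an adjusted p of 0.0632 (0.0109 with the block). Emd, the gene of emerin, another LEM-domain protein, stood at 24.4 to 26.8 FPKM with doxorubicin and 22.1 to 28.9 FPKM in medium. Its difference was -0.01, with a 95% interval of -0.18 to 0.15 (limma adjusted p = 0.949), and the within-number values had both signs (0.26 in number 1 and -0.24 in number 2).

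Banf1 encodes the barrier-to-autointegration factor, a small DNA-binding protein that LEM domains hold at the membrane. It measured 162, 150, 162, 154 and 151 FPKM in doxorubicin replicates 1 to 5, against 174, 177, 170.0, 170.0 and 173 FPKM in medium replicates 1 to 5. The groups did not overlap, but the gap was small, with a mean of 156 ± 5.66 FPKM with doxorubicin and 173 ± 2.83 FPKM in medium (SD, n = 5 each). The difference was -0.15 (SE 0.05, limma adjusted p = 0.165; 0.0397 with the replicate block), and without both number 1 libraries it was -0.16 (0.0505; 0.0182 with the block). Banf1 and Nrm were thus the 2 of 10 genes whose groups did not overlap, both with doxorubicin lower, where 3.97% of all tested genes were so (6.70% in either direction).

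Sun1 and Sun2 encode the inner membrane components of the bridges that join the lamina to the cytoskeleton. Sun2 measured 18.1, 21.7, 20.9, 23.6 and 23.6 FPKM in doxorubicin replicates 1 to 5, against 24.1, 22.6, 23.3, 29.3 and 28.8 FPKM in medium replicates 1 to 5. It was lower in 5 of 5 numbers, by between 0.06 and 0.40 on the log2 scale, and the highest doxorubicin libraries (numbers 4 and 5) overlapped medium replicates 2 and 3. The difference was -0.24 (SE 0.10, limma adjusted p = 0.244; 0.0252 with the block), and without both number 1 libraries it was -0.20 (0.198; 0.0210 with the block). Sun1 was at 12.4 to 15.5 FPKM with doxorubicin and 14.4 to 15.7 FPKM in medium, lower in 5 of 5 numbers. Its difference of -0.13 did not pass without the block (limma adjusted p = 0.308) or with it (0.0784).

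**Figure D4:**
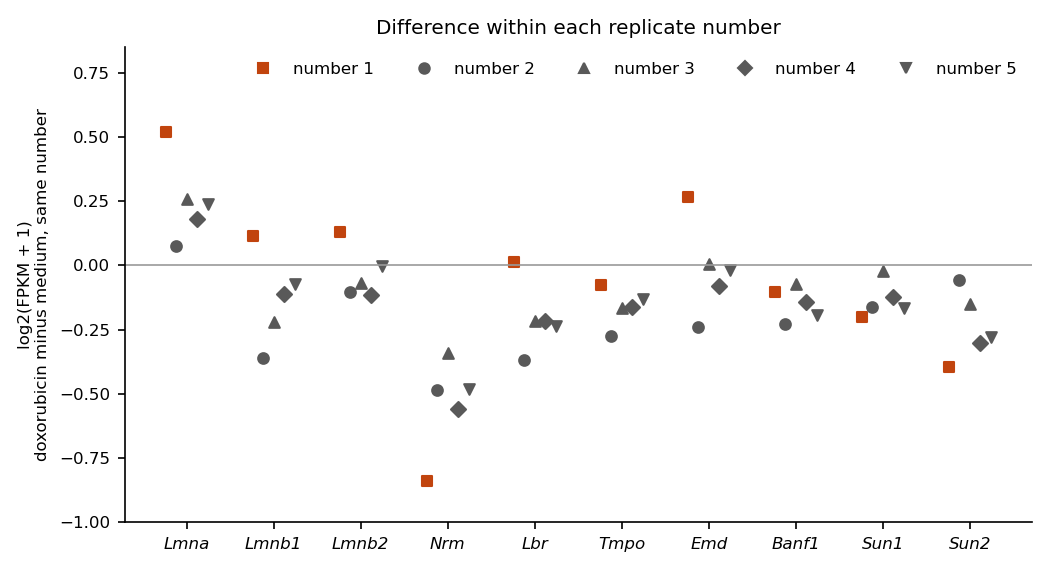
Difference in log2(FPKM + 1) between the doxorubicin and the medium library of each replicate number, per gene, with number 1 in orange squares. Lmna is above 0 in all 5 numbers, Nrm, Tmpo, Banf1, Sun1 and Sun2 are below 0 in all 5, and number 1 goes against the other 4 for Lmnb1 (0.12), Lmnb2 (0.13) and Lbr (0.02).

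The levels of these genes, which FPKM scales per transcript length, spanned a wide range. With doxorubicin the order from high to low was Lmna (285 FPKM), Banf1 (156), Tmpo (60.7), Lmnb1 (56.5), Emd (25.8), Lbr (22.3), Sun2 (21.6), Lmnb2 (21.4), Sun1 (13.8) and Nrm (10.9). In medium it was Lmna (242 FPKM), Banf1 (173), Tmpo (68.4), Lmnb1 (63.2), Emd (26.2), Lbr (25.98), Sun2 (25.6), Lmnb2 (22.04), Nrm (16.3) and Sun1 (15.2). Nrm and Sun1 thus changed places between the groups. With doxorubicin Nrm lay below Sun1 in 5 of 5 libraries, whereas in medium the ranges of these 2 genes overlapped. With doxorubicin the ranges of neighbours overlapped for Tmpo and Lmnb1, for Lbr and Sun2, and for Sun2 and Lmnb2. In medium all neighbours overlapped except Banf1 and Tmpo, and Lmnb1 and Emd, and medium replicate 1 had less Lmna than Banf1.

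Promoter windows in RefSeq (build GRCm38.p6, 250 bases before to 50 after a start) were matched by symbol for 9 of the 10 genes, in 14 windows. Lmnb1 had no matched window, so the motif counts leave it out. The 250 bases before the first listed start are shown for the 5 genes that were lower with the replicate block, 5′ to 3′ on the strand of the gene. Capitals mark 3 motifs, each searched on both strands. The CCAAT box was searched by the letters of its name. The cell cycle genes homology region, CHR, was searched as TTTGAA. The E2F core was searched as TTCGCGC, in a second form as TTGGCGC and in another form as TTCCCGC.
Nrm, chr17:35861068-35861317, plus strand: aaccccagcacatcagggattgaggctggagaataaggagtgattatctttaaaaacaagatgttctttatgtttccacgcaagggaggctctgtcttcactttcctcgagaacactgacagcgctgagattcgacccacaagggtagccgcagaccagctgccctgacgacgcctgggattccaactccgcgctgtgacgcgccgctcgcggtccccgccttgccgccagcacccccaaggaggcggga
Lbr, chr1:181842402-181842651, minus strand: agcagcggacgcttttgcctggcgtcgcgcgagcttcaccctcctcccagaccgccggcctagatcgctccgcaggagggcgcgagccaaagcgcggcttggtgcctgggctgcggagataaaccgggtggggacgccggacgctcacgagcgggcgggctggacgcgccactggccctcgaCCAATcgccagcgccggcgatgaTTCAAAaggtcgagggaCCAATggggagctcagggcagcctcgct
Tmpo, chr10:91171620-91171869, minus strand: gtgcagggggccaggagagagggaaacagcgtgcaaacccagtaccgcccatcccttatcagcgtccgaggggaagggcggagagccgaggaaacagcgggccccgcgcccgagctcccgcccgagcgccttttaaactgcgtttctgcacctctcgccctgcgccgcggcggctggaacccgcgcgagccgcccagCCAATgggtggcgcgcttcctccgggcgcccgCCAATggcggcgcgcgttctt
Banf1, chr19:5366877-5367126, minus strand: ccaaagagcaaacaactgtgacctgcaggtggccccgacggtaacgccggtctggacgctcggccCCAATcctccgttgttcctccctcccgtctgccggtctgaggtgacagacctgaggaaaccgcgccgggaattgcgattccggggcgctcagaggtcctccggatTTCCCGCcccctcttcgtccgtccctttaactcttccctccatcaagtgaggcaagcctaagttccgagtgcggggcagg
Sun2, chr15:79742537-79742786, minus strand: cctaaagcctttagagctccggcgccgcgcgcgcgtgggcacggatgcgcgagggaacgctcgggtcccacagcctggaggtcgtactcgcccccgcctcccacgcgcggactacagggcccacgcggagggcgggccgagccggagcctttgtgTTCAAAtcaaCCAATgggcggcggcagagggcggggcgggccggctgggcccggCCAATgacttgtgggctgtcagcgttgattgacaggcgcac
Lbr and Sun2 each held a pair of CCAAT boxes and 1 CHR match, read as TTCAAA on the printed strand. Tmpo held a pair of CCAAT boxes in this window, and its other window, not printed, held 2 E2F cores and 1 CHR match. Banf1 held 1 CCAAT box and 1 E2F core. Nrm held no match before its start and 1 E2F core that begins 20 bases after it, a stretch not printed. The motifs were not particular to the printed genes, as Lmna, Emd and Sun1 also held a CCAAT box and Lmnb2 an E2F core. Over the 14 windows, of which some genes gave 2, 8 held a CCAAT box, 3 a CHR match and 4 an E2F core. Of all 32851 windows of the same length 37.4% held a CCAAT box, 17.9% a CHR match and 8.07% an E2F core, so the CHR count was near its share over all windows. A match is a description of letters in a window and no measurement of binding.

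Among all tested genes other than predicted gene models (9706 compared), the pair whose centred log2(FPKM + 1) values over the 10 libraries lay closest to Lmnb1 was Ccna2, the cyclin A2 gene (root mean square distance 0.05), and the chromatin protein gene Hmgb1 (0.06). Tmpo ranked 36 and Lmnb2 ranked 114 in this order, against 6547 for Nrm. Ccna2 had 39.3 ± 6.99 FPKM with doxorubicin and 42.3 ± 11.8 FPKM in medium (SD, n = 5 each; -0.07, limma adjusted p = 0.899). The genes closest to Nrm were Kptn (0.08), Tmub1 (0.08) and Hmgxb4 (0.09), with differences of -0.45, -0.46 and -0.43 and limma adjusted p of 0.0354, 0.0480 and 0.0381. Sun2 ranked 369 there, the closest of the other 9 lamina and inner membrane genes. These distances share the 10 libraries, including both of number 1, and are a description with no test. The closest genes were chosen by these same libraries, so their differences and adjusted p are no separate evidence.

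Other genes of the nuclear envelope were read from lists in the same fit. Of 5 tested enzymes of lamin processing, 0 passed the threshold (median -0.06), and 1 was lower with the block, where 13.7% of all tested genes were. Rce1, a protease that trims prenylated proteins, stood at 13.5 ± 1.74 FPKM with doxorubicin and 15.3 ± 1.96 FPKM in medium (-0.17, limma adjusted p = 0.455; 0.0427 with the block). Zmpste24, the protease that cleaves prelamin A, stood at 30.4 ± 2.60 FPKM with doxorubicin and 28.1 ± 5.48 FPKM in medium (0.13, limma adjusted p = 0.667). Of 13 tested further inner membrane and LEM-domain genes, 0 passed (median -0.04), and the block fit called 1 higher and 3 lower, where it called 7.81% of all tested genes higher and 13.7% lower. Tmem43, which encodes an emerin-binding membrane protein, stood at 17.9 ± 0.633 FPKM with doxorubicin and 15.1 ± 1.20 FPKM in medium without overlap of the groups (0.23, limma adjusted p = 0.128; 0.0333 with the block). Prr14, which encodes a heterochromatin tether, stood at 3.56 ± 0.336 FPKM with doxorubicin and 5.83 ± 2.09 FPKM in medium (-0.53, limma adjusted p = 0.159, and 0.0431 with the block). Its groups did not overlap either, but only by 3.90 against 3.93 FPKM, and medium replicates 4 and 5 were highest (7.29 and 8.77 FPKM). Groups did not overlap for 2.73% of all tested genes with doxorubicin higher and for 3.97% with it lower. Lemd1 was listed at 0 in all libraries, and Plpp7 was below the filter.

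Of 7 tested nesprin and torsin genes, partners of the SUN proteins and membrane-associated ATPases, 0 passed with or without the block (median 0.08). Syne2 stood at 3.30 ± 0.204 FPKM with doxorubicin and 2.77 ± 0.171 FPKM in medium (0.19, limma adjusted p = 0.161), and passed without both number 1 libraries (0.25, adjusted p = 0.0262). Tor1b stood at 16.1 ± 1.03 FPKM with doxorubicin and 14.3 ± 2.35 FPKM in medium (0.17, 0.431). Of 12 genes of nuclear envelope reassembly, 0 passed (median -0.03) and 3 were lower with the block, beside 13.7% of all tested genes. Among them Chmp2a, an ESCRT-III subunit gene, stood at 56.4 ± 1.74 FPKM with doxorubicin and 68.2 ± 6.43 FPKM in medium (-0.26, limma adjusted p = 0.106; 0.0118 with the block) and was lower without both number 1 libraries (-0.22, adjusted p = 0.0179). The ESCRT ATPase gene Vps4a stood at 32.2 ± 1.25 FPKM with doxorubicin and 29.3 ± 0.976 FPKM in medium (0.13, 0.238). Of 9 heterochromatin genes, 0 passed with or without the block (median -0.04), and Cbx1 and Suv39h2 had the smallest p of them (-0.12 and -0.15, limma adjusted p of 0.434 and 0.542).

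Of 28 tested nucleoporin genes, 0 passed (median -0.05) and 6 were lower in the block fit, with 0 higher. That fit called 13.7% of all tested genes lower. Without both number 1 libraries Nup43 and Nup62 were lower (-0.29 and -0.24), where 2.77% of all tested genes were. Nup43 stood at 29.8 ± 3.03 FPKM with doxorubicin and 37.2 ± 2.96 FPKM in medium (-0.31, limma adjusted p = 0.118; 0.00495 with the block). The channel gene Nup62 stood at 47.1 ± 3.68 FPKM with doxorubicin and 56.4 ± 4.36 FPKM in medium (-0.25, 0.131; 0.00784 with the block). Of 7 other senescence markers, Cdkn1a was the 1 higher and 0 were lower (median -0.03). With the block 2 were lower (13.7% of all tested genes were), and likewise without both number 1 libraries (2.77% were). They were the p27 gene Cdkn1b (-0.62 over all libraries) and Hmgb2, a chromatin protein gene (-0.33). Of 19 cell cycle genes, 0 passed (median -0.08) and 3 were lower in the block fit, with 0 higher, a share near the 13.7% of all tested genes. Without both number 1 libraries 3 were lower, where 2.77% of all tested genes were. They were Cdc45 (-0.64), Mki67 (-0.29) and the mitotic kinase gene Plk1 (-0.23). Cdc45, a helicase component gene, stood at 27.2 ± 3.17 FPKM with doxorubicin and 42.4 ± 7.21 FPKM in medium (-0.61, limma adjusted p = 0.0532; 0.00203 with the block). The proliferation marker gene Mki67 stood at 52.0 ± 7.16 FPKM with doxorubicin and 65.9 ± 4.77 FPKM in medium (-0.35, 0.131; 0.00617 with the block). For the cell cycle list, libraries of number 1 deviated from the other 4 of their group by a median of -0.35 with doxorubicin and -0.48 in medium. In the same order the medians were -0.28 and -0.35 for the nucleoporins and -0.28 and -0.39 for the 10 lamina and inner membrane genes. Over all tested genes they were -0.05 and -0.10. Lmnb1 deviated by -0.60 with doxorubicin and -0.91 in medium, and the part of the cell cycle deviation in the Lmnb1 values was not tested.

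**Figure D5:**
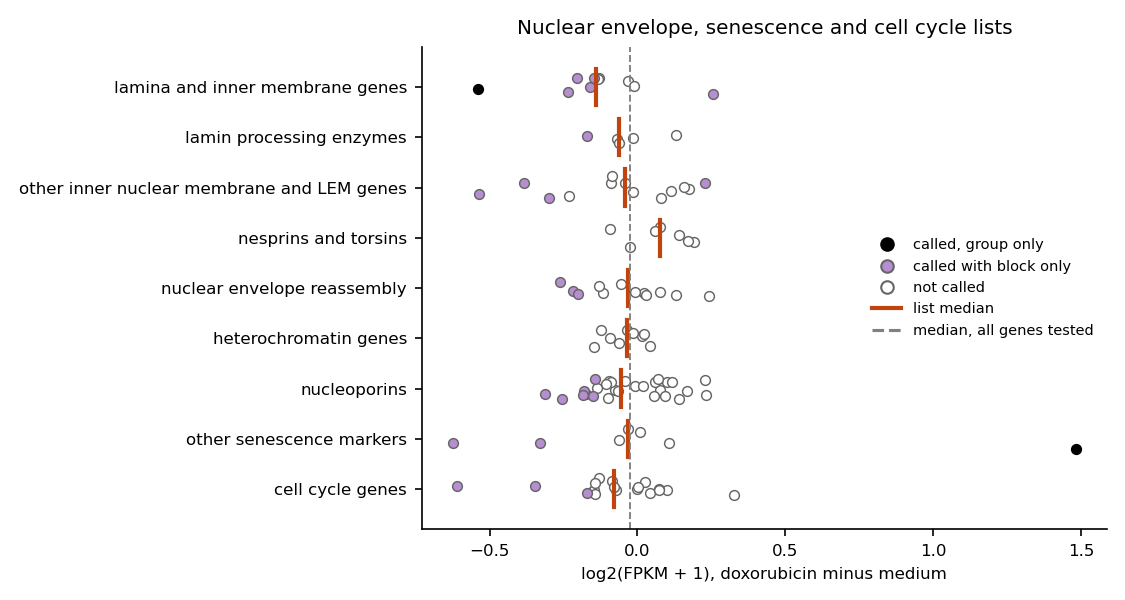
Difference in log2(FPKM + 1), doxorubicin minus medium, of each tested gene (points, spread vertically for legibility; black where called with group only, purple where called with the block only, white where not called) by list, with the list median (orange bar) and the median of all tested genes (dashed line, -0.03). Nrm (-0.54) and Cdkn1a (1.48) are the genes called with group only, and the lamina and inner membrane genes have a median of -0.14.

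In the mouse GENCODE annotation of build GRCm38, which was used for names and lengths only, exons of 7 of the 10 genes overlapped those of another gene. Banf1 shared 428 of its 1496 exonic bases with Eif1ad on the opposite strand. Eif1ad stood at 52.1 to 71.1 FPKM with doxorubicin and 29.5 to 70.8 FPKM in medium, so its lowest value was in a medium library. Banf1 lay between 170.0 and 177 FPKM in all medium libraries. Lbr shared 440 bases with Dnah14 on the opposite strand, which did not exceed 0.00319 FPKM in any library. Nrm shared 200 of 1466 bases with the antisense gene Ppp1r18os, which has no value here. The protocol names no step that keeps strand, so reads of opposite genes cannot be told apart in these stretches. On the same strand, Emd shared 343 of its 2517 exonic bases with the pseudogene Gm14686, and Lbr shared 69 bases with the rRNA gene Gm26004. Neither of these has a value here, and knowing the strand would not tell their reads apart.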

How the data were processed

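Poly(A) RNA was enriched on oligo(dT) beads and sequenced as cDNA made with random primers, per the labels' protocols. The deposited table holds FPKM made by the authors for each library and lists genes by symbol. The submitters' processing notes name GRCm39 as the build, while aligner, quantifier and annotation are not given in the sources used here. Read totals were not given either, so depth is unknown and no counting interval is given. FPKM summed to between 338293 and 356111 per library, and no pair of libraries held identical values.

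Columns were matched by library name. Only genes averaging 1 FPKM or more over the 10 libraries were tested. Values were taken as log2(FPKM + 1), which understates changes of low genes, and fitted with limma 3.58.1 in R 4.3.3 (group only, mean-variance trend, Benjamini-Hochberg over 9869 genes). The fit was tested on simulated data. Deviations from group means of same-numbered libraries correlated at 0.794, 0.700, 0.667, 0.524 and 0.547 for numbers 1 to 5, all above 0.1, so the numbers from the sample titles served as a block. Pairs 2 with 3 and 4 with 5 correlated across numbers as well (0.509 to 0.692). Ratios used FPKM as deposited. Motifs were searched in RefSeq windows of GRCm38.p6, and coordinates refer to that build only. The 10 genes and the lists were chosen with earlier results of these data known. Named genes were the 10, the check gene Cdkn1a, list members past the threshold or otherwise the 2 with the smallest p, and the 3 profiles nearest to Lmnb1 and to Nrm, of which 1 is not reported here. Cdkn1b, Hmgb2 and Plk1 were named after their values were seen.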

Additional observations from a re-analysis of the deposited data

Results flagged for a closer look

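A single library lay far from the other 4 of its group for 2 of the 10 genes, by Dixon's ratio of the gap to the group's whole range on the log2(FPKM + 1) scale (critical value 0.71 for 5 libraries). Tmpo was low in doxorubicin replicate 1 (43.7 FPKM, ratio 0.840, the other 4 at 63.0 to 67.6 FPKM) and in medium replicate 1 (46.2 FPKM, ratio 0.783, the other 4 at 70.3 to 78.9 FPKM). Lbr was low in medium replicate 1 (19.3 FPKM, ratio 0.867, the other 4 at 27.1 to 28.6 FPKM). These were 3 of 26 groups examined over the 10 genes and 3 ratios, and all 3 were number 1 libraries. Chance alone flags about 1 in 20 independent groups, but these groups share libraries and genes, so that rate cannot judge their number.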

How the results depend on the processing

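Over 24 alternative settings, 205 of 240 values of the 10 genes kept their direction and their side of the threshold, 25 gained a call, 3 lost one (all Nrm) and 7 changed sign, these of Lmnb2 and Emd. With 1 library left out, the Lmnb1 log2 difference ran from -0.31 to -0.01, the Lmna log2 difference from 0.10 to 0.34 and the Tmpo log2 difference from -0.29 to -0.05. The Lmnb2 log2 difference ran from -0.149 to 0.0462 and the Emd log2 difference from -0.0703 to 0.0229. The difference ran from -0.0108 to 0.173 for Zmpste24, from -0.252 to 0.0548 for Ccna2 and from -0.201 to 0.0767 for Hmgb1. Emd was 0.00649 after quantile normalization and 0.00527 after upper quartile scaling.

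Genes higher and lower were 68 and 22 with group only, and 0 and 1 of the 10. With the replicate block they were 771 and 1356 (1 and 5 of the 10), with 3 sets of numbers as block 1205 and 1963 (1 and 6), with library quality weights 1379 and 2302 (1 and 6), without both number 1 libraries 283 and 273 (0 and 2) and with the block as well 1010 and 1817 (1 and 6). A filter at 5 FPKM, which tests fewer genes, called 40 higher. The exact permutation test called 0 and 0 (681 and 1083 at an unadjusted p under 0.05) and 0 of the 10. Its smallest possible p, 0.00794, came to 0.118 after adjustment, for Cdkn1a as well as for Nrm. No gene could thus pass it here, so the Nrm call lost in that test says nothing about Nrm in particular. With 1 library left out, genes higher ran from 15 to 136 (15 without medium replicate 4, 136 without medium replicate 1), genes lower from 0 to 90 (0 without medium or doxorubicin replicate 4, 90 without medium replicate 1), and the 10 genes lower from 0 to 2. The cause of these shifts was not tested. Unknown depth leaves the precision of low values unstated.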

Other observations

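Levels in the number 1 libraries differed among the 10 genes in both groups. Lmnb1 stood at 65.2% of the mean of the other 4 libraries in doxorubicin replicate 1 and at 52.2% in medium replicate 1. The shares were 67.3% with doxorubicin and 62.5% in medium for Tmpo, 73.6% with doxorubicin and 58.4% in medium for Lmna, and 75.3% with doxorubicin and 65.0% in medium for Lmnb2. For Lbr they were 85.03% with doxorubicin and 69.8% in medium. Banf1 stood at 105% with doxorubicin and 101% in medium, and Nrm at 81.4% with doxorubicin and 108% in medium. Together the 10 genes made up 0.160% of the FPKM total in doxorubicin replicate 1 and 0.150% in medium replicate 1, against 0.191% to 0.218% in the other 4 doxorubicin libraries and 0.197% to 0.217% in the other 4 medium libraries.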
